A study of Mus musculus with 4 samples.

Results

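The 7 mouse genes that encode cyclin-dependent kinase inhibitors of the Cip/Kip and Ink4 families (Cdkn1a, Cdkn1b, Cdkn1c, Cdkn2a, Cdkn2b, Cdkn2c and Cdkn2d) were described by their H3K27me3 peaks in yolk sac erythro-myeloid progenitors (EMPs). The genes were chosen by name, out of 21938 protein-coding genes, and every deposited peak lying in one of them or within 10 kb of it was taken. This gave 34 of the 10223 peaks called from 500 EMPs and 19 of the 15282 peaks called from 15000 EMPs. EMPs are the first definitive blood progenitors to emerge from yolk sac endothelium, and those used here came from C57BL/6 embryos at E10.5, sorted in the study on KIT, CD41 and CD16/32. H3K27me3, the trimethylation of lysine 27 of histone H3, was mapped by CUT&RUN, in which an antibody tethers a nuclease to chromatin and the DNA released around it is sequenced. The series held 4 such libraries, an anti-H3K27me3 and an isotype-control IgG library from 500 EMPs and the same pair from 15000 EMPs, so that each group had 1 library. All 4 carried the genotype label Ezh2fl/fl; Tie2-Cre+/+ together with the words Wild type. Tie2-Cre is a Cre transgene driven in endothelium and its blood progeny, and the study's text describes the profiled cells as wild type. Neither library had a replicate, so differences between them were described without a test. The cell numbers also came with different PCR cycle numbers (17 and 16), read lengths (76 and 59 bp), sequencing instruments and peak-calling thresholds (MACS2 p of 0.01 for 500 EMPs and 0.05 for 15000 EMPs). The library from the smaller cell number was, in addition, stated to have been sequenced less deeply and to have aligned at a far lower rate. The effects of cell number and of these differences on the peaks cannot be told apart. The deposited lists hold positions alone, without heights or depth, and IgG peak lists were not analysed here.

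Cip/Kip proteins bind and inhibit a broad range of cyclin-kinase complexes, whereas Ink4 proteins bind the kinases Cdk4 and Cdk6 and keep them from their D-type cyclin partners. Both families slow the passage of progenitors from G1 into S phase. Cdkn2a is a long-studied target of Polycomb repressive complexes, whose catalytic subunit Ezh2 or its relative Ezh1 places H3K27me3, and Cdkn1c is an imprinted gene expressed mainly from the maternal copy. H3K27me3 tends to lie in broad domains over silent genes, often around starts rich in CpG dinucleotides.

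The sequences just upstream of 6 member starts are shown because gaps between peaks from 500 EMPs lay over the Arf, Ink4a and Cdkn2b starts. The 6 sequences also range from poor to very rich in CpG. They were taken from the RefSeq promoter table (GRCm38.p6, the build of the peak lists), in which 6 of the 7 members matched, Cdkn1c being the one not listed, and were trimmed to at most 250 bases before the first base of a coding transcript. Each is written 5′ to 3′ along the strand of the gene in lower case, with each CpG (the letters CG, which read the same on both strands) in capitals. The first is the upstream region of the Arf transcript of Cdkn2a (chr4:89294654-89294869, minus strand), the second that of the Ink4a transcript of the same gene (chr4:89282193-89282442, minus strand), followed by Cdkn2b (chr4:89311040-89311282, minus strand) and the internal start of Cdkn2c (chr4:109665373-109665609, minus strand). Cdkn1b (chr6:134920151-134920400, plus strand) and the upstream start of Cdkn1a (chr17:29090729-29090978, plus strand) are given as a CpG-rich and a CpG-poor start of members without a peak.
Cdkn2a, Arf start: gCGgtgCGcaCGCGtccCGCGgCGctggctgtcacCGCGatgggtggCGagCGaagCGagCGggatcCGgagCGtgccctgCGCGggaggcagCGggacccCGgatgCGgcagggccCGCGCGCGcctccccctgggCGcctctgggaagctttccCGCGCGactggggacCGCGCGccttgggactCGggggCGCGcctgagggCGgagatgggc
Cdkn2a, Ink4a start: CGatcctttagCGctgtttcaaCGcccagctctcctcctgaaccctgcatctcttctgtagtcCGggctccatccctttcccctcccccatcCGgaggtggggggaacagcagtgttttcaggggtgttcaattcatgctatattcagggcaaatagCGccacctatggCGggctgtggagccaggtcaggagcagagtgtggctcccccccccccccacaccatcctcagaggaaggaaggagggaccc
Cdkn2b: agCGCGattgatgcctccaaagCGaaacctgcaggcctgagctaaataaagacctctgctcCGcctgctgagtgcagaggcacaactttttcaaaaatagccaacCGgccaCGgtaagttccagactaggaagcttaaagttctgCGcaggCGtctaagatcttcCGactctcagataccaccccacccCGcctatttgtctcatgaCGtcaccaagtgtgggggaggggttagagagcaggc
Cdkn2c, internal start: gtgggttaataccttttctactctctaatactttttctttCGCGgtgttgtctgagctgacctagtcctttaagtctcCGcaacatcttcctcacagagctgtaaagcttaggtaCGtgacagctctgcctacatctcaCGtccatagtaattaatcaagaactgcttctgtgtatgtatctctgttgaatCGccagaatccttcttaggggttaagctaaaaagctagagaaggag
Cdkn1b: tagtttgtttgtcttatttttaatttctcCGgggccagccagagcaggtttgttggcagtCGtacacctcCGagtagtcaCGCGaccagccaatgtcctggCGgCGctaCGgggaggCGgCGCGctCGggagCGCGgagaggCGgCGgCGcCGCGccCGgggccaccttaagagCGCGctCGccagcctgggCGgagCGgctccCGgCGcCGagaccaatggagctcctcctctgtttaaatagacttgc
Cdkn1a, upstream start: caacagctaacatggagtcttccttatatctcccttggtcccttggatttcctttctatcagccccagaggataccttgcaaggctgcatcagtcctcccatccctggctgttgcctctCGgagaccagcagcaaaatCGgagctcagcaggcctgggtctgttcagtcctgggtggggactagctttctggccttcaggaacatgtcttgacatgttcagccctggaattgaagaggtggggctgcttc
These stretches held 35 CpG in 216 bases at the Arf start, 7 in 250 at the Ink4a start, 11 in 243 at Cdkn2b, 6 in 237 at the internal Cdkn2c start, 28 in 250 at Cdkn1b and 2 in 250 at the upstream Cdkn1a start. None of the 216 bases at the Arf start and none of the 250 at the Ink4a start lay in a peak from 500 EMPs, against all 216 and 200 of the 250 with 15000 EMPs. At Cdkn2b 43 of 243 bases lay in a peak with 500 EMPs and all 243 with 15000, and at the internal Cdkn2c start 218 of 237 and all 237. The Cdkn1b and Cdkn1a stretches lay in no peak of either list.

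To ask which of the inhibitor genes carried H3K27me3 in EMPs, a gene was counted as marked where a peak lay within 3 kb of the start of the gene or of one of its coding transcripts (GENCODE vM21). The same 4 of the 7 members were marked in both libraries: Cdkn2a, Cdkn2b and Cdkn2c of the Ink4 family and Cdkn1c of the Cip/Kip family. Cdkn1a, Cdkn1b and Cdkn2d had no peak in either list. By family this was 3 of the 4 Ink4 genes and 1 of the 3 Cip/Kip genes. Of all protein-coding genes, 10.8% were marked by this rule with 500 EMPs and 18.2% with 15000 EMPs. Counting any peak in the gene or within 10 kb gave the same 4 members, against 15.1% and 25% of all genes, and so did the distance column in the authors' annotated tables at a limit of 3 kb, against 9.73% and 16.7%. That column measures to the nearer end of the gene, start or 3′ end, within 2 bp in 71 of the 73 member rows, and so is not a distance from the start. A start lay inside a peak for 1 member (Cdkn2c) with 500 EMPs and for 3 (Cdkn2a, Cdkn2b and Cdkn2c) with 15000 EMPs, against 2.09% and 10.6% of all genes. With so few members these counts are a description of 7 genes, 2 of which share 1 domain. Cdkn1c with 500 EMPs rested on a single peak of 137 bp, the smallest width in that list, which 1759 of its 10223 peaks share. Without peaks of that width, or with a limit of 1 kb, 3 members remained marked with 500 EMPs, whereas the count with 15000 EMPs stayed at 4.

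In the gene or within 10 kb, the length covered was greatest at 3 of the Ink4 genes, Cdkn2a, Cdkn2b and Cdkn2c. Within 50 kb with 15000 EMPs the order turned for Cdkn2c, with 12468 bp against 21814 bp at Cdkn1c. Cdkn2a, on chromosome 4 (89274471-89294653, minus strand), encodes 2 unrelated proteins from separate starts: Ink4a, an inhibitor of Cdk4 and Cdk6, and Arf, which stabilises p53 by restraining Mdm2. Cdkn2b (4:89306299-89311039, minus strand), its upstream neighbour, encodes Ink4b, a further inhibitor of Cdk4 and Cdk6. Across both genes the peaks formed 1 domain when peaks within 3 kb of each other were joined. With 500 EMPs the domain ran from 89269981 to 89311386, 41406 bp made of 24 peaks that covered 60.5% of it. With 15000 EMPs it ran from 89264936 to 89316143, 51208 bp made of 15 peaks that covered 82.6%. It was the 8th widest of 3971 joined domains with 500 EMPs, where the median domain was 1070 bp, and the 12th widest of 6706 with 15000 EMPs, where the median was 2776.5 bp. Both lists thus placed the domain near the top by width, and both covered the end of Cdkn2a, the space between the genes and the body of Cdkn2b.

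**Figure D1:**
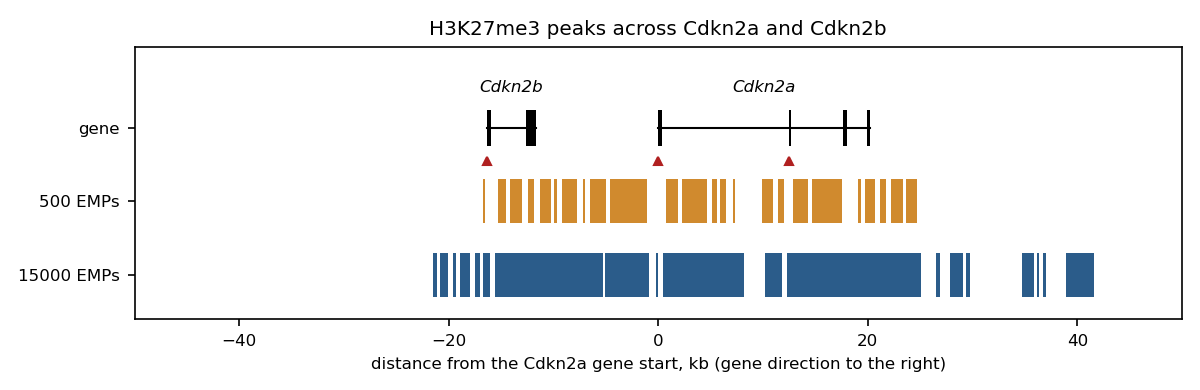
H3K27me3 peaks over Cdkn2a and Cdkn2b, with distance from the Arf start of Cdkn2a in kb on the horizontal axis and the direction of transcription to the right. The top row shows the genes, with black boxes for exons and red triangles for coding-transcript starts, and the lower rows the peaks from 500 EMPs (orange, 24 in the domain) and from 15000 EMPs (blue, 15 in the domain); the peaks from 500 EMPs fall almost entirely within the blue blocks, and both rows are broken near the Arf start.

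Within Cdkn2a, 55.6% of the gene length was covered with 500 EMPs (11223 of 20183 bp) and 85.2% with 15000 EMPs (17202 bp). These values ranked 91st and 315th of 21938 genes. In the 3 kb either side of the Arf start the covered share was 63.8% and 81.7%, ranking 93rd and 632nd. Cdkn2b was covered over 51.1% and 91.4% of its 4741 bp, which ranked 115th and 227th. Around its start the share was lower with 500 EMPs (28.5%, 518th) than with 15000 EMPs (72.8%, 923rd). Both the bodies and the start regions of these genes thus stood high among all genes in both lists, and by rank each stood higher in the list from 500 EMPs, in which fewer genes had any covered base.

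The exons of Cdkn2a differed in what covered them. Exon 1 of the Arf transcript (89294334-89294653) had no covered base with 500 EMPs and 8 of 320 bp (2.5%) with 15000 EMPs. Exon 1 of the Ink4a transcript (89281986-89282192) had none with 500 EMPs and was covered in full with 15000 EMPs, as was exon 2, which both transcripts share. Exon 3 was covered in full in both lists. The first intron of the Arf transcript, 17348 bp long, was covered over 60.6% with 500 EMPs and 84.6% with 15000 EMPs. In Cdkn2b, exon 1 had no covered base with 500 EMPs and 97.9% with 15000 EMPs, and exon 2 had 52.5% and 100%. With 500 EMPs, therefore, peaks lay beside but not on any of the first exons, the nearest peak being 704 bp from the Arf start, 394 bp from the Ink4a start and 201 bp from the Cdkn2b start. With 15000 EMPs all 3 starts lay inside a peak, the Arf start in one of only 250 bp (89294646-89294895), which no peak from 500 EMPs overlapped. The Arf call held for the GENCODE start at 89294653 but not for the RefSeq start at 89294619, which lay 27 bp from that peak.

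The widest single peaks of the locus came from 15000 EMPs. One of 12842 bp (89269551-89282392) reached from beyond the 3′ end of Cdkn2a through the Ink4a start and ranked 88th of 15282 by width. One of 10290 bp (89299974-89310263), between the genes and over most of Cdkn2b, ranked 172nd. With 500 EMPs the widest was 3588 bp (89295707-89299294), upstream of the Arf start, 95th of 10223, and the next 2895 bp (89277129-89280023), in the Ink4a intron, 149th. The 12842-bp peak overlapped 7 separate peaks from 500 EMPs, which covered 64.1% of it, and the 10290-bp peak overlapped 8, which covered 63.3% of it. The same stretches were therefore reported as long unbroken peaks in one list and as strings of shorter ones in the other.

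Cdkn2c (4:109660876-109667189, minus strand), which encodes Ink4c, has an upstream start at 109667189 and an internal start at 109665372. With 15000 EMPs 1 peak of 12468 bp (109653612-109666079) covered the internal start, the remainder of the gene and the region beyond its 3′ end, and ranked 98th of 15282 by width. With 500 EMPs the same region held 8 peaks, 11632 bp from first to last base, which covered 58.8% of that length. As joined domains these ranked 454th of 6706 and 212th of 3971. The gene length was covered over 42.5% with 500 EMPs (167th of all genes) and 82.4% with 15000 EMPs (340th). In the 3 kb either side of the upstream start the shares fell to 16.0% and 31.5%, since in both lists the mark ended downstream of that start, 1599 bp away with 500 EMPs and 1110 bp away with 15000 EMPs. The internal start lay inside a peak in both lists, though with 500 EMPs only 3 bp of the first exon that begins there was covered. The long first exon of the upstream transcript (1580 bp) had no covered base with 500 EMPs and 29.7% with 15000 EMPs, whereas the last exon, shared by both transcripts, had 83.1% and 100%.

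Cdkn2d (9:21288410-21291407, minus strand), which encodes Ink4d, was the Ink4 gene without the mark. Its nearest peak lay 42069 bp from the gene start with 500 EMPs and 40239 bp with 15000 EMPs. The nearest peak was thus at a similar distance in both lists and outside the gene.

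Among the Cip/Kip genes Cdkn1c (7:143458339-143461050, minus strand), which encodes Kip2, was marked, and its covered length differed between the lists by a larger ratio than at the Ink4 genes. With 15000 EMPs a peak of 2354 bp (143457556-143459909) covered 57.9% of the gene from its 3′ side, ranking 521st of all genes, and ended 1141 bp short of the gene start. It covered exons 3 and 4 of the main transcript in full, 13.0% of exon 2 and nothing of exon 1. Its edge lay 253 and 264 bp from the coding starts at 143460162 and 143460173, and 1087 bp from that at 143460996. Under the 1-kb limit, Cdkn1c therefore stayed marked with 15000 EMPs through the nearer of these starts. With 500 EMPs no base of the gene was covered. The nearest peak was the 137-bp one (143458127-143458263), 75 bp past the 3′ end and inside the span of the 2354-bp peak. A 290-bp peak with 500 EMPs (143464521-143464810) and a 904-bp peak with 15000 EMPs (143465299-143466202) lay upstream of the gene without overlapping each other. Within 10 kb of the gene the covered length was 427 bp with 500 EMPs and 3305 bp with 15000 EMPs, a ratio of 7.74, against 1.54 for Cdkn2a, 1.72 for Cdkn2b and 1.82 for Cdkn2c. Over the whole lists the covered length was 5.95 Mb and 23.96 Mb, a ratio of 4.03, which lies between Cdkn1c and the Ink4 genes. The Cdkn1c lengths depended on the window and filter, being 137 and 1860 bp in the 3 kb either side of the start (a ratio of 13.6), 4187 and 21814 bp within 50 kb of the gene, and 0 with 500 EMPs for peaks of at least 500 bp. A further 15000-EMP peak of 281 bp (143448105-143448385) fell just inside the 10-kb limit, at 9953 bp past the 3′ end in the authors' table. It is the edge of a joined domain of 16572 bp (143431814-143448385), of which the neighbouring peak, 143440291-143447820, began 10518 bp from the gene and so fell just outside.

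Cdkn1a (17:29090976-29100727, plus strand), the p53-responsive inhibitor, and Cdkn1b (6:134920401-134925513, plus strand), which encodes Kip1, had no covered base in the gene or within 10 kb in either list. The nearest peak to the upstream coding start of Cdkn1a was 729814 bp away with 500 EMPs and 98165 bp with 15000 EMPs. For Cdkn1b the distances were 58147 bp and 120444 bp, the closer peak being in the shorter list. An absent peak in these lists says only that no call was made at the threshold used, and no lower limit was set, since signal tracks were not analysed here and the lists carry no depth.

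**Figure D2:**
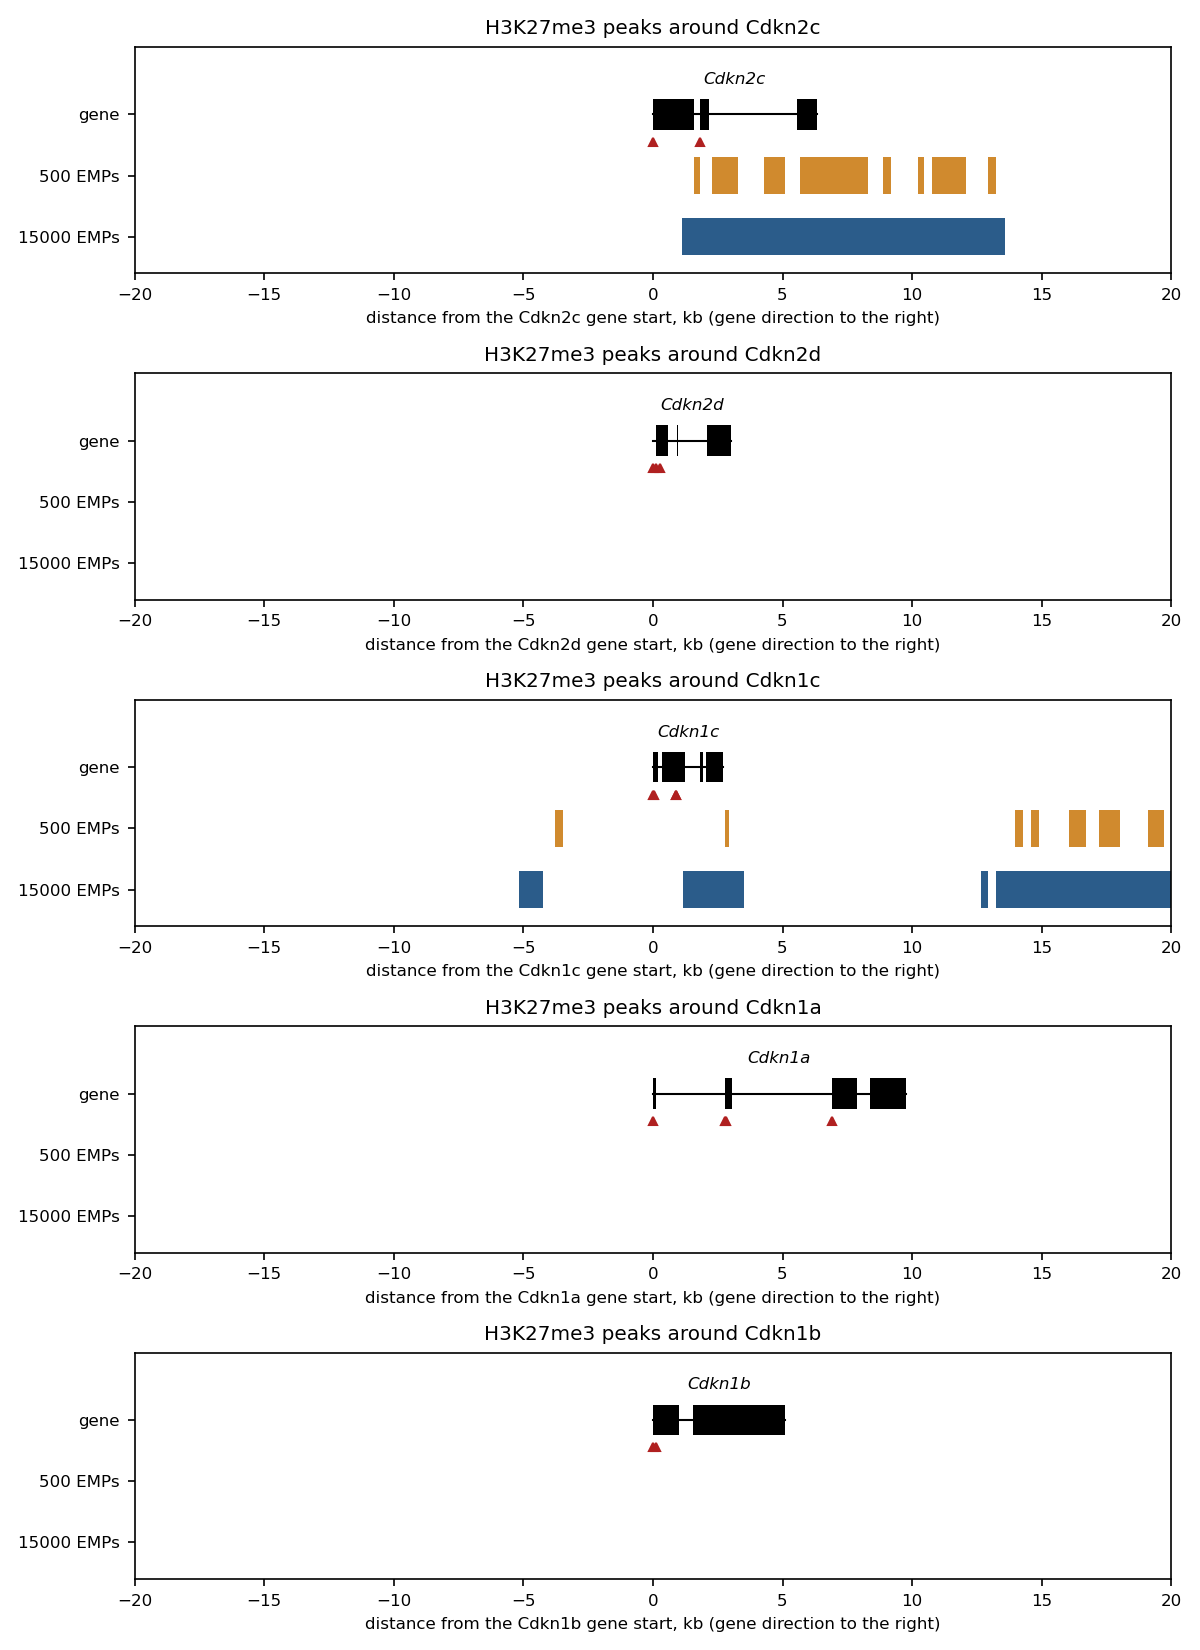
H3K27me3 peaks within 20 kb of the starts of Cdkn2c, Cdkn2d, Cdkn1c, Cdkn1a and Cdkn1b, each drawn with distance from the gene start in kb and transcription to the right; black boxes are exons, red triangles coding-transcript starts, orange blocks peaks from 500 EMPs and blue blocks peaks from 15000 EMPs. Cdkn2c and Cdkn1c carry peaks downstream of the start, in the gene or past its end, and the panels of Cdkn2d, Cdkn1a and Cdkn1b hold none.

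Over all 7 members the median covered share of the 3 kb either side of the start was 2.28% with 500 EMPs and 31.0% with 15000 EMPs, and the median over all protein-coding genes was 0 in both. In both lists the order by this measure was Cdkn2a, Cdkn2b, Cdkn2c, Cdkn1c and then the 3 members at 0. With 15000 EMPs Cdkn2c and Cdkn1c were close, at 31.5% and 31.0%. By the covered share of the gene itself Cdkn2b moved ahead of Cdkn2a with 15000 EMPs. No error could be put on these orders with 1 library each.

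**Figure D3:**
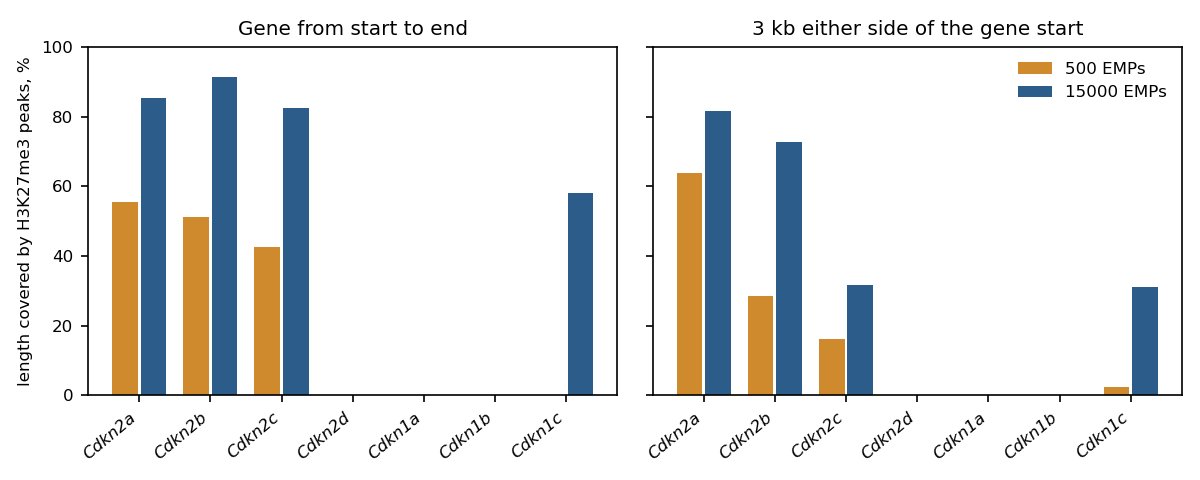
Share of each member's length (left) and of the 3 kb either side of its start (right) covered by H3K27me3 peaks, in percent, as bars for 500 EMPs (orange) and 15000 EMPs (blue), 1 library each, without error bars for that reason. The bars of Cdkn2a, Cdkn2b and Cdkn2c stand above 0 for both cell numbers in both panels, Cdkn1c reaches 57.9% and 31.0% with 15000 EMPs and 0 and 2.28% with 500 EMPs, and the other 3 members are at 0.

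To see how far the lists from the 2 cell numbers shared their peaks at these genes, peaks were counted as overlapping where they had at least 1 bp in common. Of the 34 peaks from 500 EMPs, 33 overlapped a peak from 15000 EMPs (97.1%, 95% Wilson interval 85.1 to 99.5), and 96.9% of their length was shared. The exception was the 290-bp peak upstream of Cdkn1c. In the other direction 8 of the 19 peaks from 15000 EMPs overlapped one from 500 EMPs (42.1%, interval 23.1 to 63.7), with 53.7% of the length shared. In the Cdkn2a/Cdkn2b domain it was 24 of 24 and 6 of 15. The intervals cover counting error alone, and peaks of 1 domain are not independent of each other. Over all peaks, 9327 of 10223 from 500 EMPs (91.2%) overlapped one from 15000 EMPs, with 93.0% of the length shared, and 4915 of 15282 from 15000 EMPs (32.2%) overlapped one from 500 EMPs, with 23.1% of the length shared. The near containment of the 500-EMP peaks at the members was thus close to that of the whole list, and no difference from it was tested.

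The gaps between peaks were then compared with the sequence under them, because the Arf, Cdkn2b and Cdkn2c upstream starts had all fallen outside the 500-EMP peaks. The gap of the 500-EMP domain over the Arf start, 1757 bp long (89293950-89295706), held 94.5 CpG per kb at 64.5% GC. The gap over the Cdkn2b start (89309985-89311239) held 61.4 CpG per kb, that over exon 1 of Ink4a (89281799-89282676) 42.1 and that over exon 2 of Cdkn2a (89275544-89277128) 40.4. Across the whole domain the bases in 500-EMP peaks held 11.2 CpG per kb and those in the gaps 28.9. The 6 gaps that touched an exon of Cdkn2a or Cdkn2b ranged from 6.18 to 94.5 CpG per kb (median 41.3), and the 17 that touched none from 0 to 40.8 (median 8.93). Of all 23 gaps, 13 held fewer CpG per kb than the peaks of the domain, so the gaps were not CpG-rich in general.

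With 15000 EMPs the gaps narrowed but stayed at the same place at Arf. The stretches on either side of the 250-bp peak there (89294168-89294645 and 89294896-89295515) held 79.5 and 117.7 CpG per kb. The bin of 250 bp just upstream of the Arf start, 96.8% of it in that peak, held 152 CpG per kb, so the richest bin of the profile was covered with 15000 EMPs. Over the domain the 15000-EMP peaks held 15.1 CpG per kb and the gaps 23.3. Of the 14 gaps, 7 held fewer CpG per kb than the peaks, among them the widest, 2019 bp in the first Arf intron (89284468-89286486), with 9.41 CpG per kb. The higher value over all gaps thus came from part of them, those at Arf being the richest. Soft-masked repeats made up 25.05% to 25.89% of the bases in and between peaks in both lists.

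The edges of the peaks at Cdkn2c and Cdkn1c were compared in the same way. From the end of the 15000-EMP peak in Cdkn2c to the upstream start, 1110 bp without a peak held 91.0 CpG per kb, against 16.7 inside the peak. From the end of the 15000-EMP peak in Cdkn1c to the gene start, 1141 bp held 99.9 CpG per kb, against 52.7 inside. Neither edge fell at a drop in CpG, since in bins of 250 bp the Cdkn1c peak fully covered 3 bins with 120, 136 and 116 CpG per kb just inside its edge, and the Cdkn2c peak fully covered one with 96. Over all member peaks from 15000 EMPs, the bases also called with 500 EMPs held 11.1 CpG per kb and 40.3% GC, and those called with 15000 EMPs alone 24.1 CpG per kb and 46.5% GC. Over all peaks of the 15000-EMP list the corresponding values lay closer together, at 21.5 and 24.1 CpG per kb and 49.2% and 50.2% GC.

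**Figure D4:**
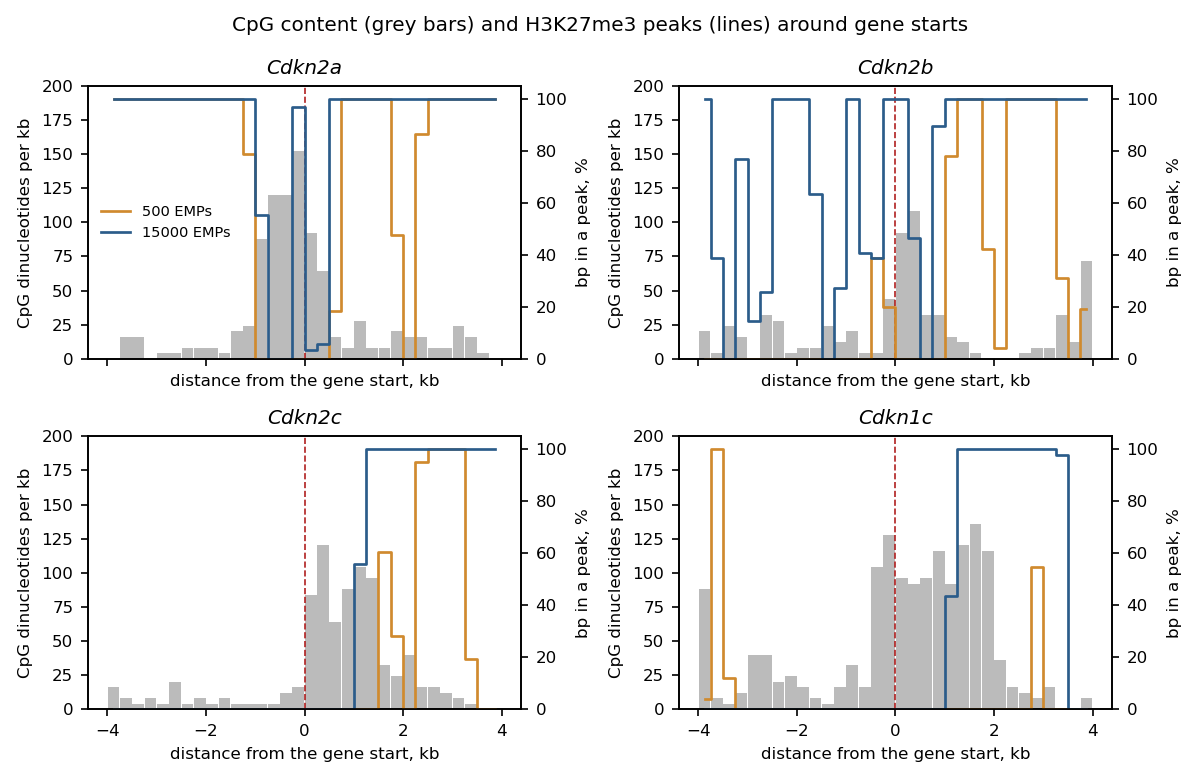
CpG dinucleotides per kb in 250-bp bins (grey bars, left axis) and percent of each bin in an H3K27me3 peak (lines, right axis; orange 500 EMPs, blue 15000 EMPs) over the 4 kb either side of the start of the 4 marked members, with a dashed line at the start. At Cdkn2a the 500-EMP line is at 0 in the bins from -1000 to 500 bp. The 15000-EMP line there is at 0 from -750 to -250 bp, at 96.8% in the bin just before the start, and at 3.2% and then 5.6% after it. At Cdkn2c and Cdkn1c no bin in the 3 kb before the start or the first 1 kb after it lies in a peak.

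A peak near but not over the start was common across the genome. Of the genes marked within 3 kb, a start lay inside a peak for 459 of 2366 (19.4%) with 500 EMPs and 2326 of 3987 (58.3%) with 15000 EMPs. The next medians are for genes with a peak within 3 kb of the gene start itself, other coding starts left aside. Where the gene start was inside a peak, the 1 kb around it held a median of 45.0 CpG per kb with 500 EMPs (308 genes) and 51.9 with 15000 EMPs (1893 genes). Where it was outside every peak, the medians were 60.9 (1869 genes) and 62.9 (1835 genes). Around the member starts the values were 107.9 at Arf, 105.9 at Cdkn1c, 62.9 at Cdkn2b, 58.9 at the upstream Cdkn2c start, 38.0 at its internal start and 37.0 at Ink4a. Of the 3 unmarked members, Cdkn1b had 90.9, Cdkn2d between 60.9 and 68.9 and Cdkn1a between 6.99 and 53.9 CpG per kb. High CpG content at the start was therefore found among marked and unmarked members alike. Over all genes in the promoter table, those with a peak within 3 kb had more CpG in their richest 300-bp window than those without, at a median of 21 against 14 with 500 EMPs and 20 against 14 with 15000 EMPs. Whether PCR, fragment size or the peak caller had a part in the gaps over CpG-rich starts was not tested.

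In the RefSeq windows of 300 bp (250 bases before to 50 after the start), the Arf window had 45 CpG, a number that 1.93% of 32851 promoters reached. The upstream Cdkn2c window had 33 (8.56% of promoters reached as many), Cdkn1b 30 (11.7%), Cdkn1a 23 at its downstream start (21.5%) and 2 at its upstream start (85.9%), Cdkn2d 22 (23.1%), Cdkn2b 18 (29.7%), Ink4a 12 (39.6%) and the internal Cdkn2c start 8 (48.7%). The upstream Cdkn2c window is that of the RefSeq start at 109666756, 677 bp from the nearest 15000-EMP peak, not of the GENCODE start at 109667189. The median of all promoters was 7. The 2 starts of Cdkn2a and of Cdkn2c thus differed widely within 1 gene, and in both genes the richer start was the upstream one.

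The authors' annotated tables, which pair each peak with a gene, held 41 rows for the members among 10516 with 500 EMPs and 32 among 15810 with 15000 EMPs. Of these, 20 and 9 lay within 3 kb of either gene end by the authors' distance. Cdkn2a had 18 and 13 rows, Cdkn2b 6 in each table, Cdkn2c 8 and 1, Cdkn1c 9 and 12, and the other members none. A count of rows in these tables did not follow the covered length, since 1 peak stood for the whole Cdkn2c domain with 15000 EMPs. For Cdkn1c all but 1 row in each table lay over 3 kb away by the authors' distance, and 1 of its rows with 500 EMPs and 4 with 15000 EMPs lie inside Kcnq1. The 10290-bp peak from 15000 EMPs that covers most of Cdkn2b is paired only with Cdkn2a, as upstream at 5321 bp.

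The genes around the members were set beside them. Of those within 10 kb, the long non-coding genes Gm12606, past the 3′ end of Cdkn2a, and 9630013D21Rik, past that of Cdkn2c, were partly covered, the first over 6.93% and 26.8% of its length with 500 and 15000 EMPs and the second over 29.2% and 67.1%. Gm12811 (1.92% and 3.63%) and Gm44732, antisense to Cdkn1c (0 and 18.0%), were covered over less. Faf1 near Cdkn2c, Kri1 and Ap1m2 near Cdkn2d, Lockd and Gm44238 near Cdkn1b, and AC167363.2 inside Cdkn1a had no covered base. Among 11 genes of the imprinted region around Cdkn1c, Kcnq1, Phlda2, Ascl2 and Igf2 had a peak within 3 kb of a start in both lists. Of all protein-coding genes, 10.8% (500 EMPs) and 18.2% (15000 EMPs) had one. No difference from these shares was tested, here or for the Cdkn2a and Cdkn2b neighbours below. Around the Kcnq1 start 26.3% and 94.7% was covered, around Ascl2, a transcription factor of the placenta, 13.3% and 88.1%, around Phlda2, a growth-restricting gene of the placenta, 9.67% and 63.4%, and around Igf2, a fetal growth factor, 9.60% and 35.9%. Of the 3 wider neighbours of Cdkn2a and Cdkn2b, Dmrta1 and Elavl2 had a peak within 3 kb of a start in both lists and Mtap in neither. At Dmrta1 this was the start of its coding transcript, since no base in the 3 kb either side of its gene start was covered in either list.

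Other genes of the cell cycle, listed by role, were counted by the same rule. With 500 EMPs 5 of 37 (13.5%) had a peak within 3 kb of a start and with 15000 EMPs 6 of 37 (16.2%), shares near those of all genes given above (10.8% and 18.2%). Of the 9 cyclins, Ccnd1 and Ccna1 were marked in both lists and Ccnd2 with 15000 EMPs. The covered share of the 3 kb either side of the start was 3.32% and 68.9% at Ccnd1, a D-type partner of Cdk4 and Cdk6, 21.6% and 68.7% at Ccna1, the germline A-type cyclin, and 0 and 18.5% at Ccnd2. Of the 9 kinases and their activators, Cdk4 alone was marked (2.83% and 21.9%). Of 8 genes of the p53 arm, Trp73, a relative of p53 (50.1% and 84.3%), and Gadd45b, a stress-response gene (2.28% and 38.2%), were marked. No peak lay within 3 kb of a start of the 11 pocket-protein and E2F genes, through which Cdk4 and Cdk6 act on S-phase entry. This held in both lists, and also for Cdkn3, Cdkn2aip and Cdkn2aipnl, which share the name but belong to neither inhibitor family.

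For each marked member the protein-coding genes with the most similar pattern of covered 100-bp bins, over the 3 kb either side of the start in both lists together, were found by the Jaccard index, the shared covered bins divided by all bins covered in either gene. Socs2 (0.95), Epop (0.905) and Mycl (0.905) were closest to Cdkn1c. Gm4881 (0.796), Prdm16 (0.789) and Vax2 (0.786) were closest to Cdkn2a. For Cdkn2b they were Tfap2e (0.744), Dmrt1 (0.724) and Crabp2 (0.711), and for Cdkn2c Btbd17 (0.862), Cadm1 (0.828) and Hfe2 (0.821). The matches to Cdkn1c rest on the 15000-EMP list, since Socs2, Epop and Mycl had no covered base in this window with 500 EMPs, where Cdkn1c had 2.28%. The likeness is one of peak position alone.

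Among genes that mark cell types, none of 7 EMP markers (Kit, Itga2b, Fcgr3, Fcgr2b, Runx1, Ptprc and Spi1) and none of 3 erythroid markers (Gata1, Klf1 and Hbb-y) had a peak within 3 kb of a start in either list. Of 4 endothelial markers, Kdr had one with 15000 EMPs and Cdh5, Pecam1 and Tek had none. Pax3 and Hoxb13, developmental regulators of other lineages, were covered over 52.2% and 81.1% of the 3 kb either side of the start with 500 EMPs and over the whole of it with 15000 EMPs. With 10.8% and 18.2% of all genes marked, so few markers without a peak do not check the labelled cell type, and H3K27me3 peaks do not measure expression.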

How the data were processed

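H3K27me3 and IgG CUT&RUN libraries were prepared from 500 or 15000 E10.5 EMPs. Per the labels and the study's methods, the authors aligned reads to GRCm38 (mm10) with Bowtie2 2.2.1, handled alignments with SAMtools 1.9 and called broad peaks with MACS2 2.1.2 against IgG, at p of 0.01 (500 EMPs) and 0.05 (15000 EMPs). The command listing in the study's reporting summary names the libraries the other way round under these thresholds, and the lists were used as labelled. The deposited peak lists and annotated tables hold positions in bp and gene annotations, with no score, fold or signal, so the depth is unknown from them (signal tracks were not analysed here), and the reporting summary states a lower depth and alignment rate for 500 EMPs. Peaks were taken as 1-based closed intervals and set against GENCODE vM21 with Python 3.11.15 scripts, using numpy 2.4.6, and interval operations were tested on simulated data. CpG counts came from the RefSeq GRCm38.p6 genome. With 1 library per group no test was run. The members and gene lists were chosen with earlier results of these data known. Alternatives were other distance limits and windows, filters on narrow peaks, joined peaks, overlap rules and the authors' distance column.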

Additional observations from a re-analysis of the deposited data

How the results depend on the processing

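The lists hold no score, so a stricter threshold could not be applied, and with 1 library per group leaving one out was not possible. Of 120 alternative values, 31 moved, 23 of them lengths at single members, and 89 did not. A count or length was taken as moved where it changed by more than 1.5 times, and a share where it left the 95% Wilson interval of the reported one. The covered length over all members in the genes or within 10 kb, 32326 bp with 500 EMPs and 58090 bp with 15000 EMPs, became 53465 bp with 500 EMPs when peaks within 3 kb were joined, 6635 and 13021 bp in the 3 kb either side of the start, and 94713 bp within 50 kb with 15000 EMPs. Counting only bases covered in both libraries, a choice made after seeing the data, gave 31314 bp for 15000 EMPs. The overlap of 500-EMP peaks became 100% within 1 kb and 75% for joined peaks, and that of 15000-EMP peaks 80% for joined peaks, 57.9% within 1 kb and 31.6% with 50% of the peak required. The loss of Cdkn1c with 500 EMPs under a 1-kb limit, without the narrowest peaks, or with peaks of at least 500 bp was, among these limits, these filters and the authors' distance column, the only change in which members were marked. On autosomes alone, also chosen after seeing the data, 11.1% and 18.7% of genes were marked. The lower depth and alignment rate stated for the 500-EMP library bear on genes without a peak and on the lengths added with 15000 EMPs, and signal tracks were not analysed here.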
